A study of Mus musculus with 8 samples.

Results

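Hspd1, Hspe1, Hspa9 and Trap1, which encode chaperones of the mitochondrial matrix, and Hsp90b1, Hspa5, Calr, Canx, Pdia3 and Pdia4, which encode chaperones of the endoplasmic reticulum (ER), were followed in haematopoietic stem cells after loss of 3 histone demethylases. These 10 genes were taken by symbol from the 24222 symbols of each count table. The set was chosen by the knockout against wild-type differences of Hspd1 and Hsp90b1 in these same libraries, so the values of the 10 genes in both genotypes are a description, without a test. Cells had been isolated by FACS, and came from 4 Kdm4a/b/c triple knockout (KO) mice and 4 wild-type (WT) mice, whose bone marrow was the source. All were of the C57BL6 strain and were sampled 2 weeks after induction of the deletion, with 1 library per mouse; whether WT mice received the inducing agent is not stated. Neither the surface markers of the sort, nor the age of the mice, nor the means of induction is given in the sources used here.

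Chaperones bind unfolded proteins and help them to fold. In mitochondria, Hspa9 (mortalin) is the Hsp70 that pulls imported proteins into the matrix. Hspd1 (Hsp60) forms the barrel in which they fold, Hspe1 (Hsp10) is its lid, and Trap1 is the mitochondrial Hsp90. In the ER, Hspa5 (BiP) is the Hsp70 and Hsp90b1 (GRP94) the Hsp90. The lectins Calr and Canx hold newly made glycoproteins, and Pdia3 and Pdia4 form and rearrange their disulphide bonds. When unfolded protein gathers in the ER, the unfolded protein response raises the RNA of these ER genes through the transcription factors ATF6 and XBP1, which act at the ER stress response element. Heat shock factors, which act at heat shock elements, are known regulators of Hspd1 and Hspe1. Blood stem cells make little protein compared with the progenitors that arise from them, and are known to be sensitive to misfolded protein.

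The promoter windows of Hspa5, Hsp90b1, Calr and Canx are shown because each held an exact ER stress response element, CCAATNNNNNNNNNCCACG, in which N is any base. The windows, 250 bases before to 50 after the start of each gene, are from RefSeq (GRCm38.p6, the build that mm10 stands for). They are chr2:34771840-34772139 on the plus strand for Hspa5, chr10:86705395-86705694 on the minus strand for Hsp90b1, chr8:84846882-84847181 on the minus strand for Calr and chr11:50325624-50325923 on the minus strand for Canx. Each is printed in the direction of its gene, and capitals mark the fixed letters of the element on either strand.
Hspa5: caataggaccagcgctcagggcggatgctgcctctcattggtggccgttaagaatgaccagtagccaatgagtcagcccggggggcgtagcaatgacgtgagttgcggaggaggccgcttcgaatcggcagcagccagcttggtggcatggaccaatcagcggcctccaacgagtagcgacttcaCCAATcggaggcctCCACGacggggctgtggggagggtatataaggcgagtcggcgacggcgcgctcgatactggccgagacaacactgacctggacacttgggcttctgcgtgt
Hsp90b1: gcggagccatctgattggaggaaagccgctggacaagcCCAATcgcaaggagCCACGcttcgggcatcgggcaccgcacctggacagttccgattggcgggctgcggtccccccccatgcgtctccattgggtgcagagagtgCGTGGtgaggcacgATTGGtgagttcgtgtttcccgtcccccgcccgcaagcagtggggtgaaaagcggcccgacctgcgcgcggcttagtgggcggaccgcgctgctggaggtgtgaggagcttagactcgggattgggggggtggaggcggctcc
Calr: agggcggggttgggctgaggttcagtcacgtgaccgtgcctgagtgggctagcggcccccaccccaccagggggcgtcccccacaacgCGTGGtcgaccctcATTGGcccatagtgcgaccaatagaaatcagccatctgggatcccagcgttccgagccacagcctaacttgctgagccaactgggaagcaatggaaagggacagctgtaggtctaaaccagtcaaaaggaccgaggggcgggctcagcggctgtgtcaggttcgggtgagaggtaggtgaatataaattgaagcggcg
Canx: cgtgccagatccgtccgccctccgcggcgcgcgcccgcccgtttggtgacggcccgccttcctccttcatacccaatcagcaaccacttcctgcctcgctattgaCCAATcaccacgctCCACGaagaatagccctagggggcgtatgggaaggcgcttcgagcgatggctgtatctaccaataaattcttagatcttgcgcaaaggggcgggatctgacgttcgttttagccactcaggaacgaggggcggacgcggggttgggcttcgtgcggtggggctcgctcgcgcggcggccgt

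The element was rare. On both strands it was found in 39 of 32851 windows (0.119%), which belonged to 37 of 27025 genes, and 4 of these 37 genes were ER members. It began 65 bases before the start of Hspa5, 162 before that of Calr and 145 before that of Canx. Hsp90b1 held it at both 212 and 107 bases before its start, once on each strand. Pdia3, Pdia4 and the mitochondrial members with a window held no exact copy. Its first 5 letters alone, CCAAT, was found in all 6 ER members, in 1 window of Hspd1 and in 37.4% of windows. The ATF6 and XBP1 site TGACGTG was found in Hspa5 alone among the members and in 2.01% of windows. A match of letters is a description of the window and does not show that a factor binds there. A window was matched for 9 of the 10 members, Hspa9 being the exception.

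Hspd1 and Hspe1 lie head to head on chromosome 1, and overlap at their annotated 5′ ends, which are 111 bases apart (Hspd1 from 55077835 to 55088243 on the minus strand, Hspe1 from 55088132 to 55091307 on the plus strand). The window of Hspe1, chr1:55087898-55088197 on the plus strand, is shown because it holds the start of Hspe1 and the downstream of the 2 starts that RefSeq lists for Hspd1. Capitals mark the core of a heat shock element, GAANNTTC, at positions 55088064 to 55088071.
Hspe1: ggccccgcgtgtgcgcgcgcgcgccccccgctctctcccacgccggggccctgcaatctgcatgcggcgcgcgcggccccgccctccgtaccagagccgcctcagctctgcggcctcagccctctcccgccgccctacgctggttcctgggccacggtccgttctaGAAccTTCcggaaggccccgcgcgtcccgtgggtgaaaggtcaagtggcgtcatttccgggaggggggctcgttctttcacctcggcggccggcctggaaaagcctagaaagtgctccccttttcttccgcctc

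This core stood 84 bases before the start of Hspe1 and, in the other direction, 139 bases before the downstream of the 2 listed starts of Hspd1. It lies after the other start, within Hspd1 as GENCODE annotates it. It occurred in 7.86% of all windows and in no window of the other 7 members that had one. Hspd1 and Hspe1 also shared the C/EBP core site TGCAAT, which was found in 8.40% of all windows and in none of the other 7 members.

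**Figure D1:**
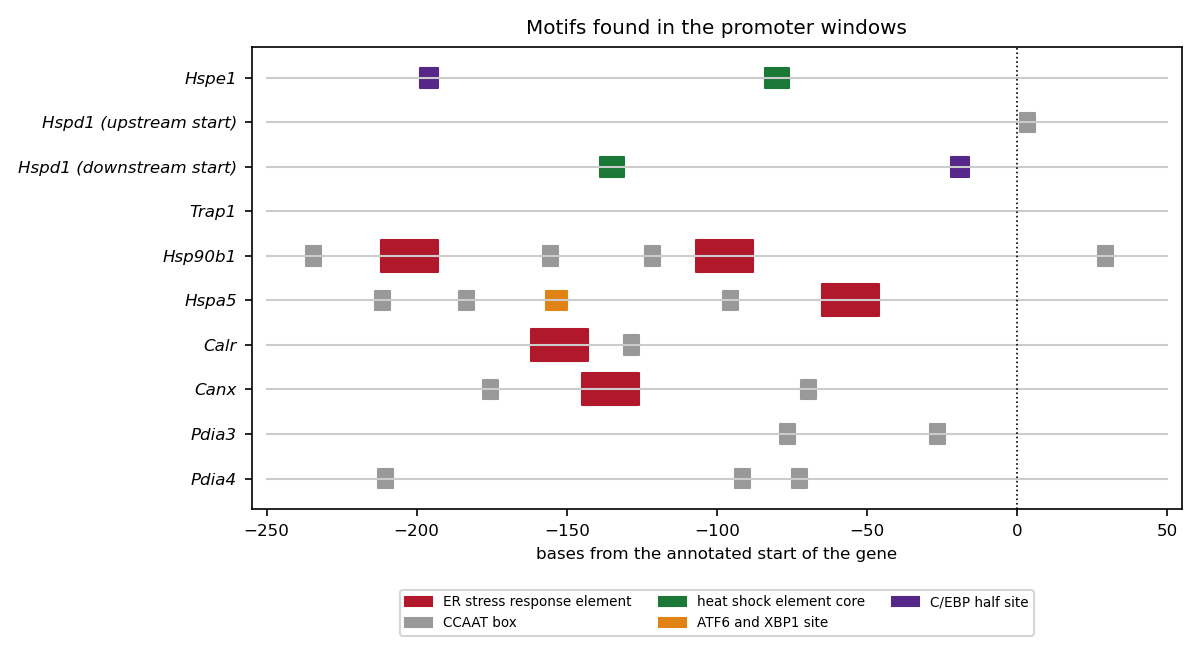
Positions of the motifs searched in the promoter windows of 9 members, in bases from the annotated start of each gene (dotted line). Red blocks are exact ER stress response elements, which stand in Hsp90b1, Hspa5, Calr and Canx, and green blocks are heat shock element cores, which stand in Hspe1 and in the downstream window of Hspd1.

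The libraries held 5541504 to 14872493 counts in KO mice and 3594315 to 6044289 in WT mice, KO mouse 3 being the deepest. Kdm4c was lower in KO, at 36 ± 10.6 CPM against 115 ± 22.7 CPM in WT (SD, n = 4 each, adjusted p = 2.05e-05 in edgeR's quasi-likelihood test). CPM are counts divided by the library total, as adjusted by edgeR's TMM factor, and scaled to a common depth. Kdm4a was at 20.3 ± 3.86 CPM in KO and 36.3 ± 9.56 CPM in WT, and Kdm4b at 3.73 ± 1.79 CPM in KO and 10.2 ± 2.44 CPM in WT, which did not pass (adjusted p = 0.132 and 0.142 by edgeR), although every KO library lay below every WT library. All 12 stem cell markers examined were measured. Their summed level was between 3738 and 4179 CPM in KO and between 4345 and 4691 CPM in WT, so it was lower in every KO library. None (0) was called by edgeR, while 2 were higher and 4 lower with an unadjusted p below 0.05, as 11.2% of all genes were in either direction. DESeq2 called 3 (1.34% of all genes) and limma voom 1 (0.644% of all genes). In bulk RNA, fewer cells of a type and less RNA per cell cannot be told apart.

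The 10 members were among the more abundant RNAs of these cells and together took 0.525% to 0.627% of counts in KO and 0.439% to 0.506% in WT. Without Hspd1 and Hsp90b1, whose differences chose the set, the shares overlapped, at 0.311% to 0.352% in KO and 0.268% to 0.319% in WT. Per kilobase of merged exons, which allows genes to be compared, Hsp90b1 had the highest level of the 10, at 437 ± 64.3 CPM per kb in KO and 318 ± 18.4 CPM per kb in WT. Hspd1 came next at 287 ± 32.9 CPM per kb in KO and 204 ± 16.8 CPM per kb in WT. In KO its 4 libraries lay above all of those of Canx, the next in order, whereas in WT Hspd1, Canx and Hspa5 each overlapped the next in order, up to Pdia3. Canx followed at 208 ± 16 CPM per kb in KO and 196 ± 17.3 in WT, Hspa5 at 192 ± 36.8 in KO and 183 ± 41.8 in WT, and Pdia3 at 168 ± 32.3 in KO and 145 ± 4.78 in WT. Calr stood alone at 131 ± 11.0 CPM per kb in KO and 105 ± 9.73 CPM per kb in WT, overlapping no neighbour in either genotype. Hspe1 at 83.5 ± 18.2 CPM per kb in KO and 55.6 ± 4.18 in WT, and Hspa9 at 69.8 ± 7.88 in KO and 68.8 ± 9.47 in WT, overlapped in KO but not in WT, where Hspa9 was the higher. Pdia4, which overlapped Hspe1 in WT, and Trap1 were lowest and overlapped each other, at 39.6 ± 8.25 and 38.4 ± 4.18 CPM per kb in KO and 46.5 ± 11.0 and 41.7 ± 6.64 CPM per kb in WT. Among the 11033 tested genes with a length, the members lay between the 90.0th percentile (Trap1) and the 99.8th (Hsp90b1) in KO, and between the 91.4th and the 99.6th in WT.

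For both parts of the mitochondrial folding barrel, all KO libraries stood above the WT range. Hspd1, its subunit, was at 689, 686, 864 and 796 CPM in KO mice 1 to 4, against 599, 519, 543 and 496 CPM in WT mice 1 to 4. KO mouse 2, the lowest of its genotype, was still above WT mouse 1, the highest, and the fitted log2 fold change was 0.49 (SE 0.107), or 1.41-fold. Hspe1, its lid, was at 162, 119, 101 and 111 CPM in KO mice and at 74.9, 87.0, 87.2 and 78.6 CPM in WT mice. The groups did not overlap either, KO mouse 1 being well above the rest, and the log2 fold change was 0.59 (SE 0.167). The ratio of Hspd1 to Hspe1 in CPM varied among KO mice, from 4.26 in KO mouse 1 to 8.56 in KO mouse 3. In WT mice it lay between 5.96 and 8.0. Pseudogene copies are annotated for both, 5 for Hspd1 and 6 for Hspe1, none with a row in the count tables. Reads shared with these copies may have been lost. Hspa9 and Calr each have 1 annotated pseudogene, also without a row, so the same limit holds for them. Of the merged exon bases, 4.24% in Hspd1 and 7.60% in Hspe1 overlap each other on opposite strands, and the strand setting of the counting is not given in the sources used here.

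For the other mitochondrial members the genotypes overlapped. Hspa9, the import motor, was at 295, 269, 349 and 290.4 CPM in KO mice and at 295, 355, 264 and 273 CPM in WT mice. The groups covered almost the same range, and the log2 fold change was 0.03 (SE 0.124). Trap1, the mitochondrial Hsp90, was at 85.0, 95.1, 108 and 107 CPM in KO mice and at 131, 99.3, 91.9 and 106 CPM in WT mice, with a log2 fold change of -0.12 (SE 0.157). The ratio of Hspd1 to Hspa9 in CPM was accordingly higher in each KO library (2.34 to 2.74) than in the highest WT library (1.46 to 2.06 in WT).

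Among the ER members, Hsp90b1 had the largest difference. Hsp90b1 was at 1840.4, 2028, 1767 and 1408 CPM in KO mice 1 to 4, against 1312, 1309.9, 1335 and 1172 CPM in WT mice 1 to 4. The groups did not overlap, KO mouse 4 lying nearest to WT, and the log2 fold change was 0.46 (SE 0.102), or 1.37-fold. Other annotated genes overlap 15.7% of its merged exon bases. They include the annotated gene 1810014B01Rik on the opposite strand, which had 82 to 436 counts in KO and 71 to 196 in WT, against 7585 to 26436 counts of Hsp90b1 in KO and 4683 to 7566 in WT. Hspa5, its Hsp70 partner in the ER and the best known target of the unfolded protein response, was at 777, 1039.7, 694 and 735 CPM in KO mice and at 851, 896, 835 and 511 CPM in WT mice. The groups overlapped, with KO mouse 2 the highest and WT mouse 4 the lowest of all, and the log2 fold change was 0.07 (SE 0.157). Without WT mouse 4 it was -0.09, below 0. The ratio of Hsp90b1 to Hspa5 in CPM was 2.37, 1.95, 2.55 and 1.92 in KO mice and 1.54, 1.46, 1.6 and 2.29 in WT mice, so WT mouse 4 lay within the KO range.

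Of the lectin pair, one overlapped between the genotypes and the other did not. Calr, the soluble lectin, was at 347, 378, 421 and 362 CPM in KO mice and at 293, 282, 343 and 288 CPM in WT mice. The groups did not overlap, although the lowest KO library and the highest WT library were close, and the log2 fold change was 0.32 (SE 0.114). Canx, the membrane-bound lectin, was at 865, 1002, 998 and 1034 CPM in KO mice and at 989, 915, 964 and 806 CPM in WT mice. These overlapped, with a log2 fold change of 0.09 (SE 0.0988).

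For both disulphide isomerases the genotypes overlapped. Pdia3, which works with Calr and Canx, was at 679, 465, 485 and 481 CPM in KO mice and at 448, 451, 445 and 477 CPM in WT mice. Only KO mouse 1 stood clear of the WT range by a wide margin, and the log2 fold change of 0.21 (SE 0.119) became 0.07 without it. Pdia4 was at 77.3, 113, 111 and 78.4 CPM in KO mice and at 109, 127, 135 and 75.5 CPM in WT mice, with a log2 fold change of -0.20 (SE 0.182).

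**Figure D2:**
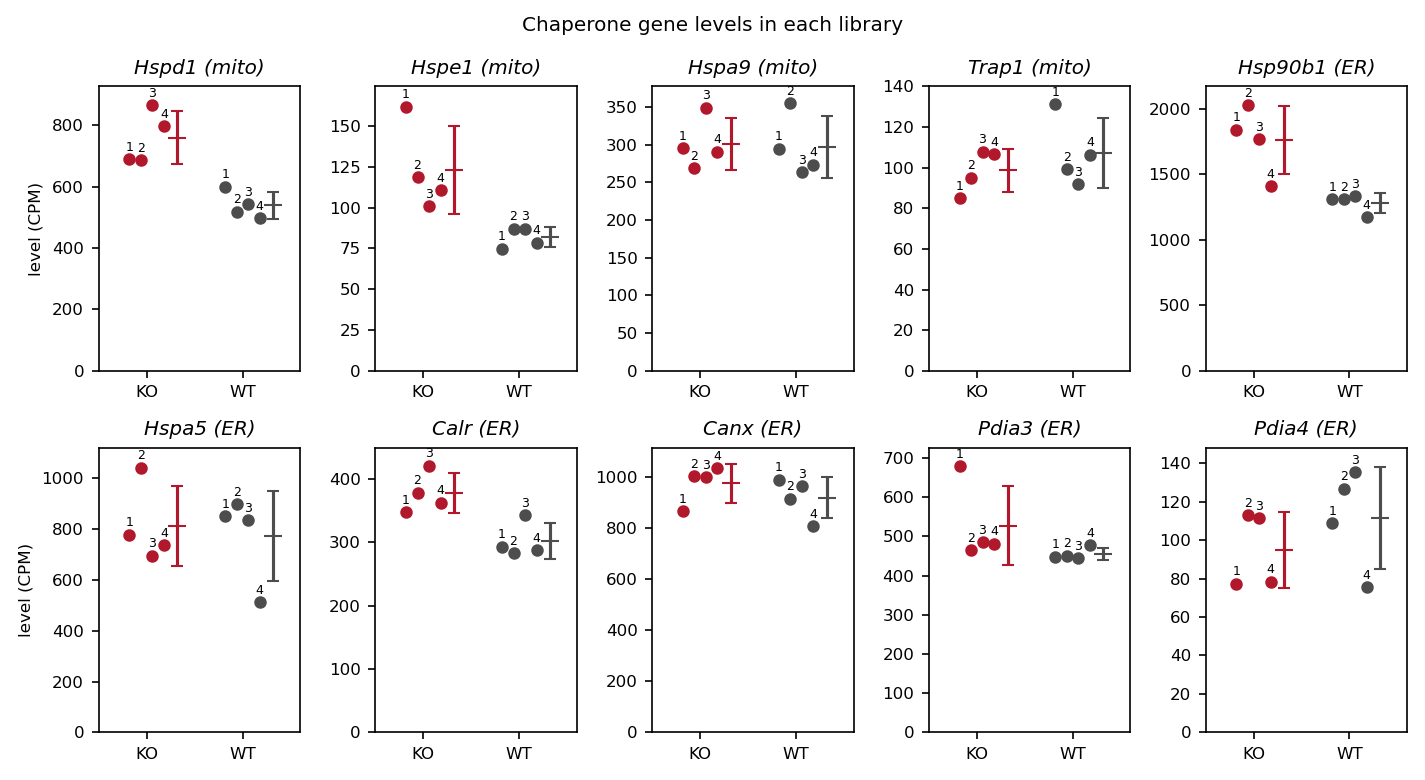
Level of each member in CPM (vertical axes, starting at 0) in the KO (red) and WT (grey) libraries; numbers are mouse numbers, and bars give the mean and SD of 4 mice. KO and WT do not overlap for Hspd1, Hspe1, Hsp90b1 and Calr, and overlap for the other 6.

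In all, 2 of the 10 members, Hspd1 and Hsp90b1, were past the threshold of edgeR's test over all genes, where 0.583% of 11498 genes were (29 higher in KO, or 0.252%, and 38 lower, or 0.33%). Hsp90b1 was the member nearest to that threshold on the inner side and Hspe1 the nearest outside it. In 4 of the 10 every KO library was above every WT library, which held for 2.88% of all genes tested. Since these values chose the members, nothing is read from either count. All 10 members passed the filter on low counts. The mitochondrial members summed to 1231, 1169, 1422 and 1304 CPM in KO mice and to 1099.6, 1059.6, 986 and 955 CPM in WT mice. The ER members summed to 4586, 5025, 4477 and 4100.1 CPM in KO mice and to 4002, 3981, 4056 and 3329.7 CPM in WT mice. These sums did not overlap between the genotypes, but they contain the genes that chose the set. Without Hspd1 the mitochondrial sums overlapped, at 483 to 558 CPM in KO and 443 to 541 CPM in WT. Without Hsp90b1 the ER sums overlapped too, at 2692 to 2997 CPM in KO and 2158 to 2721 CPM in WT. The median log2 fold change was 0.26 over the 4 mitochondrial members and 0.032 without Hspd1. It was 0.15 over the 6 ER members and 0.086 without Hsp90b1, and 0.002 over all genes tested. The Hspd1 and Hsp90b1 calls were not stable. That of Hspd1 was lost without KO mouse 3 or 4 or WT mouse 2, 3 or 4, and with the replicate number as a block. That of Hsp90b1 was lost in 7 of the 8 omissions of a library, all but that of KO mouse 4.

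Differences among the ER members can be set beside their promoter windows. Hspa5, Hsp90b1, Calr and Canx, which held the exact element, had log2 fold changes of 0.07, 0.46, 0.32 and 0.09, and Pdia3 and Pdia4, which did not, of 0.21 and -0.20. Of the 33 other genes with the element, 10 were tested, some of them, such as Dnajc3 and Pdia6, also in the ER lists below. None (0) of the 10 passed edgeR's test, DESeq2 or limma voom. With edgeR's p left unadjusted, 1, the lipid synthesis gene Acacb, was higher and under 0.05, where 11.2% of all genes were in either direction. The median log2 fold change of the 10 was 0.15, against 0.002 over all genes.

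Deviations of each library from the mean of its own genotype, in log2 CPM, do not contain the difference between KO and WT. Hspa5 and Pdia4 varied most among mice of a genotype. Their SD within genotype was 0.324 and 0.341, higher than in 86.5% and 88.9% of the 4267 genes with a mean of at least 50 CPM, whereas Canx (0.123) and Calr (0.124) were among the steadiest. In WT mouse 4, Hspa5 was 0.56 and Pdia4 0.53 below the WT mean, and in KO mouse 2 they were 0.38 and 0.27 above the KO mean. WT mouse 4 was the lowest WT library for 24 of the 48 tested ER folding genes, members included, against 22.5% of all genes tested. The 24 include Hspa5 and Pdia4, whose low values in WT mouse 4 are given above, so the count is only a description. Hyou1, an ER Hsp70-like partner of Hspa5, was at 65.5 CPM in WT mouse 4 and at 118 to 134 CPM in the other WT mice. Hsp90b1 was also lowest there, by 0.13.

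The likeness of a pair of members was the root mean square difference of these deviations over the 8 libraries. Hspd1 and Hspe1, the head-to-head pair, were the 34th closest of the 45 pairs, at 0.29. In KO mouse 1, Hspe1 was 0.42 above the KO mean and Hspd1 0.13 below it. The closest pair was Hspd1 and Canx, at 0.095, followed by Calr and Canx at 0.11 and by Hspe1 and Pdia3 at 0.11, both of which were highest in KO mouse 1. Pdia3 and Pdia4 were the farthest apart, at 0.40. Hspa5 and Hsp90b1 were 19th, at 0.22. Over the 4267 genes, those nearest to Hspd1 were Pom121, a nuclear pore gene, Eif4a3 and Ywhab, at 0.033, 0.043 and 0.050. Those nearest to Hsp90b1 were Btaf1, Ccng1 and Zfr, at 0.036, 0.056 and 0.057. The measure favours genes with little spread, and these points share library depth, so it is a description of 8 libraries.

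**Figure D3:**
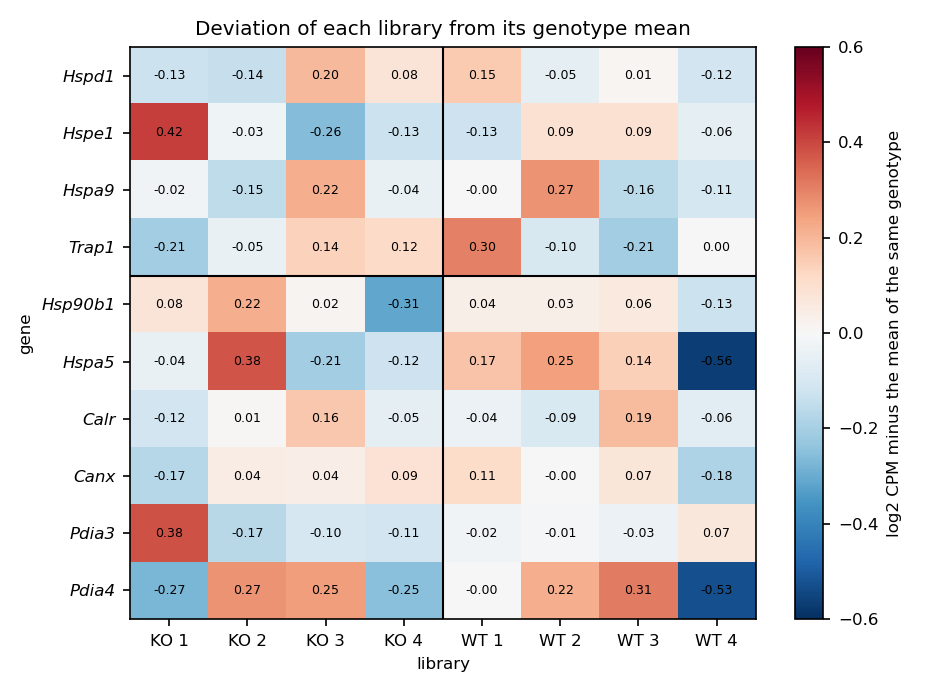
Deviation of log2 CPM of each member (rows) in each library (columns) from the mean of the same genotype. The lowest cells are those of Hspa5 and Pdia4 in WT mouse 4, and the highest is that of Hspe1 in KO mouse 1.

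The wider folding machinery was taken from 8 lists of 156 genes, of which 152 were tested. None (0) passed edgeR's test over all genes, where 0.583% did. With p left unadjusted, 10 were below 0.05 and higher in KO and 4 lower, where 11.2% of all genes were below 0.05. DESeq2 called 2, Erp29 and Hsph1, where it called 1.34% of all genes, and limma voom called 0, where it called 0.644%. None of these counts is a larger share of the 152 than of all genes. In 10 of the 152 every KO library lay above every WT library, which held for 2.88% of all genes, and in 0 every KO library lay below, which held for 2.93%. Their median log2 fold change was 0.02.

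The mitochondrial partners of the members gave no call. Of 17 co-chaperones and import genes 11 had a fold above 1, which held for 50.2% of all genes, and their median on the log2 scale was 0.12. Dnaja3 and Grpel1, the J-protein and nucleotide exchange factor of Hspa9, were at 42.5 ± 6.39 and 13.0 ± 3.39 CPM in KO and at 38.1 ± 4.66 and 14.2 ± 3.85 CPM in WT (SD, n = 4). The smallest p belonged to Dnajc15 and Dnlz, with log2 fold changes of 0.63 (SE 0.314) and 0.60 (SE 0.311; adjusted p = 0.466 and 0.474 by edgeR). Of 14 proteases and prohibitins 6 had a fold above 1, with a median of -0.009. Lonp1 and Clpp, matrix proteases that are known targets of the mitochondrial unfolded protein response, were at 29.7 ± 3.71 and 7.15 ± 1.10 CPM in KO and at 29.1 ± 4.67 and 7.14 ± 2.34 CPM in WT, and Phb and Phb2, with the smallest p, had log2 fold changes of 0.39 and 0.17.

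Of 21 tested co-chaperones and glycoprotein folding genes 12 had a fold above 1, with a median of 0.11. Sdf2l1, which works with Hspa5, was at 52.3 ± 7.56 CPM in KO and 33.0 ± 8.26 CPM in WT, and Mesdc2, a chaperone of lipoprotein receptors, at 281 ± 41.0 CPM in KO and 221 ± 13.7 CPM in WT. In both, all KO libraries were above all WT libraries, but neither passed (SD, n = 4, adjusted p = 0.165 and 0.261 by edgeR). Hyou1, Dnajb11 and Dnajc3, 3 cofactors of Hspa5, had log2 fold changes of 0.11 (SE 0.20), 0.27 (SE 0.144) and -0.02 (SE 0.124). Of 21 disulphide and prolyl isomerases 8 had a fold above 1, with a median of -0.12. Erp29, a thioredoxin-fold chaperone of the ER, was at 70.6 ± 7.24 CPM in KO and 45.8 ± 7.67 CPM in WT (SD, n = 4, adjusted p = 0.177 by edgeR), and DESeq2 called it higher (adjusted p = 0.0458). Genes on the opposite strand overlap 26.4% of the merged exon bases of Erp29, and the strand setting of the counting is not given. Fkbp11, a prolyl isomerase, was at 11.3 ± 2.05 CPM in KO and 5.47 ± 1.72 CPM in WT. P4hb and Pdia6, abundant disulphide isomerases, had log2 fold changes of 0.03 (SE 0.136) and 0.23 (SE 0.143).

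Most genes of the unfolded protein response list had a fold below 1, but none passed the test. The list holds sensors and transcription factors together with other genes of the response. Of the 16 tested 4 had a fold above 1, with a median of -0.22. The lowest p were those of Ppp1r15b, which helps to lift the block on translation, at 140.2 ± 26.8 CPM in KO and 179 ± 18.2 CPM in WT, and of Ern1, the sensor that splices Xbp1 RNA, at 61.4 ± 10.6 CPM in KO and 84.2 ± 15.4 CPM in WT (SD, n = 4, adjusted p = 0.345 and 0.357 by edgeR). Xbp1, Atf4, Atf6 and Ddit3 had log2 fold changes of 0.07, -0.12, -0.14 and -0.69, with SE of 0.174, 0.157, 0.138 and 0.422. The counts sum over a gene, so spliced and unspliced Xbp1 RNA are not separated. Of 19 genes of ER-associated degradation 8 had a fold above 1, with a median of -0.049. Ube2j1 and Selk, with the smallest p, had log2 fold changes of -0.28 and 0.29.

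Of 30 tested cytosolic chaperones 23 had a fold above 1, with a median of 0.15. Hsph1, an Hsp70 exchange factor induced by heat shock factors, was at 551, 585, 655 and 490.4 CPM in KO mice and at 422, 384, 454 and 233 CPM in WT mice. The groups did not overlap, and edgeR gave an adjusted p of 0.069, with a log2 fold change of 0.62 (SE 0.153). It passed with DESeq2 (adjusted p = 0.0389), without a filter (7.53e-05 by edgeR) and with the replicate block (0.0183 by edgeR), and the range over 15 alternatives was 7.53e-05 to 0.172. Bag2, a co-chaperone, was at 23.8 ± 4.54 CPM in KO and 40.8 ± 18.8 CPM in WT. Hsp90aa1, the inducible cytosolic Hsp90, had a log2 fold change of 0.33 (SE 0.117), Hsp90ab1, the constitutive one, of -0.06 (SE 0.111), and Hspa8, the constitutive Hsp70, of 0.12 (SE 0.115). Of 14 genes of the cytosolic chaperonin, which resembles Hspd1 in its barrel form, and of its partner prefoldin 11 had a fold above 1, with a median of 0.073. Cct6a was at 1005 ± 123 CPM in KO and 787 ± 34.6 CPM in WT, and Cct3 at 182 ± 27.3 CPM in KO and 134 ± 23.6 CPM in WT (SD, n = 4, adjusted p = 0.124 and 0.219 by edgeR).

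**Figure D4:**
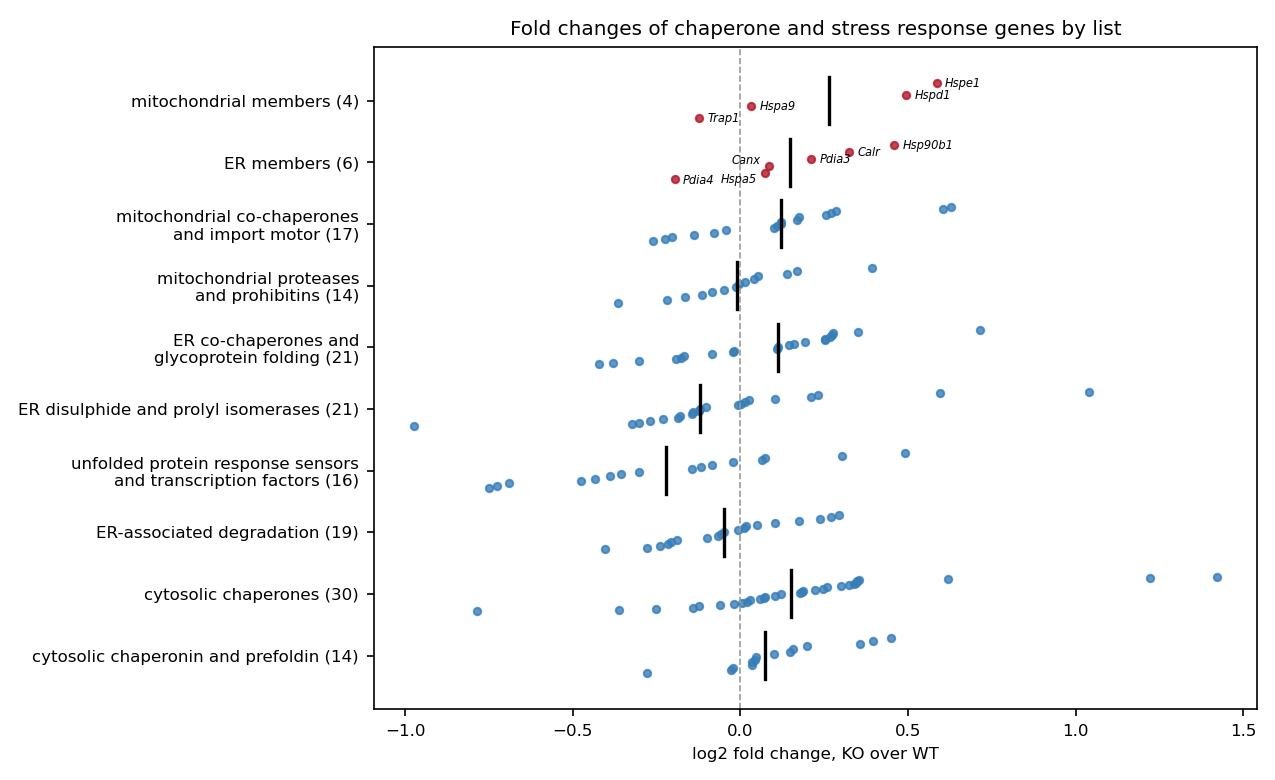
Log2 fold changes, KO over WT, of the members (red, named) and of the genes of 8 other lists (blue), 1 point per tested gene; black lines are list medians and numbers in brackets count the genes. The median of the mitochondrial members, 0.26, includes Hspd1, whose difference chose the set, and is 0.032 without it. The lowest median of the other lists is -0.22, for the unfolded protein response list, which also holds genes other than sensors and transcription factors.

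Proliferation and other cell types were followed through their marker genes. Of 20 proliferation genes, 19 had a fold above 1, which held for 50.2% of all genes, and the median was 0.27 on the log2 scale. By edgeR, DESeq2 or limma voom 0 were past the threshold. With edgeR's p left unadjusted, 6 were below 0.05 and higher and 0 lower, where 11.2% of all genes were below 0.05. The summed level of the 20 genes was 7777, 5736, 5842 and 5992 CPM in KO mice 1 to 4. In WT mice 1 to 4 it was 5538, 4748, 4658 and 5949.5 CPM. It was highest in KO mouse 1, and the genotypes overlapped. Plasma cells, which carry much ER chaperone RNA, were followed by 11 plasma cell and B cell markers, which summed to 16.6 to 28 CPM in KO and 14.0 to 23.3 CPM in WT, and Tnfrsf17 was at 0 in every library. Markers of neutrophils and monocytes summed to 228 to 253 CPM in KO and 188 to 242 CPM in WT, those of macrophages and dendritic cells to 19 to 31.0 in KO and 14.5 to 30.2 in WT, and those of T and NK cells to 23.7 to 34.4 in KO and 10.9 to 34.0 in WT. Of these lists, 1 marker was lower, Mrc1 of macrophages, at 0.989 ± 0.602 CPM in KO and 6.09 ± 3.96 CPM in WT (SD, n = 4, adjusted p = 0.02 by edgeR), and 1 was higher, Cd68, at 19.9 ± 4.19 CPM in KO and 6.58 ± 3.31 CPM in WT (adjusted p = 0.0347 by edgeR). Siglech, Cd3g and Ncr1 were at 0 in every library. Erythroid markers summed to 1323 to 1528 CPM in KO and 2271 to 2483 CPM in WT, most of it Car2, a carbonic anhydrase that was lower, at 1306 ± 84.9 CPM in KO and 2286 ± 111 CPM in WT. Without Car2 they summed to 104 to 110 CPM in KO and 103 to 125 CPM in WT, which overlapped. Of the 6 tested erythroid markers 2 had a fold above 1, Gata1 and Tfrc, at log2 fold changes of 0.44 (SE 0.268) and 0.04 (SE 0.182). Car1, Epor and Klf1 were at -1.815 (SE 0.525), -0.55 (SE 0.404) and -0.16 (SE 0.47). For Car1 every KO library lay below every WT library, at 1.93 ± 1.3 CPM in KO and 8.11 ± 4.59 CPM in WT. It did not pass (adjusted p = 0.1325 by edgeR). DESeq2 called 2 of the 6 lower, where it called 1.34% of all genes. Hba-a1 and Hbb-bt were at 0. Those of megakaryocytes summed to 955 to 1071 CPM in KO and 903 to 1132 CPM in WT, with 2 higher, Gp1ba at 88.1 ± 14.3 CPM in KO and 39.6 ± 5.59 CPM in WT and Itga2b at 105 ± 15.2 CPM in KO and 53.0 ± 12.6 CPM in WT. The part of these marker differences in the values of the members was not tested.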

How the data were processed

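Haematopoietic stem cells of 4 KO and 4 WT mice were profiled by RNA-seq, with cDNA amplified by the Nugen Ovation system, per the labels' protocols. Each deposited table gives whole-number read counts by gene symbol. For mapping the authors used STAR (2.4.0d-2 in Galaxy) and for counting htseq-count (0.6.1galaxy1), per the labels' protocols. The build was mm10, per the submitters' processing notes. The gene annotation of the counting is not given in the sources used here.

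The counts were analysed with edgeR 4.0.16 in R 4.3.3. filterByExpr (minimum count 10, minimum total 15) left 11498 genes. KO was compared with WT by the robust quasi-likelihood test, two-sided, with genotype as the only term and Benjamini-Hochberg adjustment over all genes at 0.05. The SE was the log2 fold change divided by the square root of F. Log2 CPM used a prior count of 2. Positions and merged exon lengths came from GENCODE M21, matched by symbol, and promoter sequences from RefSeq. Protein sequences were not used here.

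The members, lists and tests were chosen with earlier results of these data known. The text names the members, the targeted genes, 16 fixed partners and regulators, up to 4 called genes or else the 2 with the smallest p of each list, called markers, and the 3 genes nearest to Hspd1 and to Hsp90b1. Cd68, Itga2b, Gata1, Tfrc, Car1, Epor, Klf1, Acacb and Hspa1a and Hspa1b were named after their values were seen. Alternatives were DESeq2 size factors, library totals, no filter, a filter of 5 CPM in 4 libraries, DESeq2 1.42.0, limma 3.58.1 voom, the replicate block and omission of each library. Summaries without Hspd1, Hsp90b1 or Car2 were added after seeing the data. The fit was tested on simulated data. Mice are separate, but p-values cover only the spread among these 8 libraries.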

Additional observations from a re-analysis of the deposited data

Results flagged for a closer look

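Among 54 genes examined in both genotypes, 6 of the 108 groups of 4 mice held a library that lay far from the other 3, where chance alone gives about 1 in 20. For 3 of them the gene was a member. WT mouse 4 was lowest for Hspa5, at 511 CPM against 835 to 896 CPM in the other WT mice, and for Hsp90b1, at 1172 CPM against 1309.9 to 1335 CPM. KO mouse 1 was highest for Pdia3, at 679 CPM against 465 to 485 CPM in the other KO mice. Lonp1 was highest in KO mouse 2, at 35.2 CPM against 27.4 to 28.1 CPM. Dnaja3 was highest in WT mouse 2, at 45 CPM against 35.0 to 36.6 CPM, and Dnajc15 in WT mouse 1, at 15.9 CPM against 9.99 to 11.0 CPM.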

How the results depend on the processing

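Of the 10 members, Hspd1, Hspe1, Hsp90b1, Calr, Canx and Pdia3 had a log2 fold change above 0 and Trap1 and Pdia4 one below 0 in all 15 alternatives. Hspa9 was below 0 in 3 and Hspa5 in 2. When a library was left out, Hspd1 ran from 0.43 to 0.55, Hsp90b1 from 0.38 to 0.55, Hspa5 from -0.09 to 0.15 and Hspa9 from -0.05 to 0.12. The median of the mitochondrial members then ran from 0.19 to 0.31, being lowest without KO mouse 3. Leaving Hspd1 out of that list, chosen after seeing the data, gave 0.032, and leaving Hsp90b1 out of the ER list 0.086. The count of 67 called genes, 29 higher and 38 lower, became 199 (109 and 90) without a filter and 154 (78 and 76) with DESeq2. Leaving out a library gave 35 to 70, with 14 to 33 higher and 21 to 38 lower. It was 44 without KO mouse 4 or WT mouse 2 and 35 without WT mouse 3. Of these, 19, 18 and 14 were higher without KO mouse 4, WT mouse 2 and WT mouse 3, and 25, 25, 23 and 21 lower without KO mouse 3, KO mouse 4, WT mouse 1 and WT mouse 3. DESeq2 called 1 disulphide isomerase, Erp29, and 1 cytosolic chaperone, Hsph1, which was also the 1 called without a filter and with the replicate block. Of the members, DESeq2 called Hspe1 as well as Hspd1 and Hsp90b1, where it called 1.34% of all genes. No other alternative called Hspe1, and nothing is read from calls of the members. Cct6a was the 1 called chaperonin gene without a filter. Kdm4a passed with DESeq2 at a log2 fold change of -0.85. The Mrc1 call was lost in 6 of 14 alternatives.

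Leaving out a library also turned the sign of genes that gave no call: Clpp ran from -0.11 to 0.28, Lonp1 from -0.050 to 0.11, Hyou1 from -0.093 to 0.21, Dnajc3 from -0.11 to 0.045, P4hb from -0.090 to 0.15, Xbp1 from -0.023 to 0.21, Hsp90ab1 from -0.19 to 0.037 and Eif4a3 from -0.037 to 0.083. The cause of these changes was not tested. Same-numbered KO and WT libraries did not deviate together (correlations of -0.092, -0.014, -0.009 and -0.041), so the numbers were not taken as pairs; the replicate block gave 57 called genes, and no library matched its own number best. Clgn, Chac1, Derl3 and Hspb1 had too few counts to be tested.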

Other observations

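Hspa1a and Hspa1b, the stress-induced cytosolic Hsp70 genes, had the largest log2 fold changes of the cytosolic chaperones, 1.42 (SE 0.767) and 1.22 (SE 0.662), at levels of 2.54 ± 2.25 and 3.59 ± 3.18 CPM in KO and 1.19 ± 1.29 and 1.99 ± 1.34 CPM in WT (SD, n = 4). The genotypes overlapped and neither gene passed edgeR's quasi-likelihood test (adjusted p = 0.495 and 0.50). The genes are near-identical copies, so reads may be split between them or lost.

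Of the 8 genes of the folding lists nearest to Hspa5 in their deviations within genotype, chosen after the values of Hspa5 were seen, all were lowest in WT mouse 4 among WT mice and 6 were highest in KO mouse 2 among KO mice. Hspa5 deviates most in these libraries, so the way the genes were picked favours those that share its extremes, and the counts are only a description. They were Ube2j1, which serves ER-associated degradation, at a root mean square difference of 0.144 on the log2 scale, the oxidase gene Ero1l at 0.167, Uggt2, Lonp1, Dnajc3, Stip1, Pdia4 and Txndc5.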
